A study of Rattus norvegicus with 8 samples.

Results

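The genes described here are the 4 rat members of the PMP22 and epithelial membrane protein family, Emp1, Emp2, Emp3 and Pmp22, of 16581 genes that could be named on the array. They were taken as the gene probes whose accession, without its version, is a RefSeq transcript of one of these symbols, and each gene had 1 probe. The family was chosen by the measured difference of Emp1 between Klf4 and control arrays, which is among the largest rises in this study, so the values of Emp1 are given as a description, without a test. Gene expression was measured on single-colour microarrays in GFP-positive cells sorted from retinal explants of Lister hooded rats. Cells of the 4 Klf4 samples carried a plasmid encoding Klf4, a zinc-finger transcription factor, and those of the 4 control samples a control plasmid. All retinas were taken on postnatal day 0, electroporated in vitro with 25 V pulses of 50 ms and kept in culture for 39 hours, and only cells that had taken up plasmid were sorted, so both groups hold the transfected fraction of the retina. No source used here names the promoter that drives Klf4. The replicates are numbered 2 to 5 in each group, and whether a replicate is its own animal or electroporation is not stated, so the p-values cover only the variation among these 8 samples, which can be technical.

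Proteins of this family are small and cross the membrane 4 times, with a fold shared with the claudins. PMP22 is best known as a component of compact myelin made by Schwann cells, where changes of its gene dosage cause inherited neuropathies, and it was also found as a gene of growth-arrested fibroblasts. EMP1 is found in epithelia and in tumours, EMP2 controls integrins at the cell surface and is known from the retinal pigment epithelium, and EMP3 is studied in gliomas and blood cells.

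Emp2, Emp3 and Pmp22 were higher with Klf4, and for each of these 3 genes the 4 Klf4 arrays lay above the 4 control arrays without overlap. Pmp22 was 4.83-fold higher, Emp2 4.62-fold and Emp3 3.1-fold, and these 3 passed the test. Emp1, by which the family was chosen, also lay higher without overlap and showed by far the widest separation, from a signal at background on most control arrays. Its direction was fixed by that choice, so it is not counted beside the shares that follow. In the fit across all features 4.55% of the 13590 genes with a symbol were called higher with Klf4 and 0.633% lower, and 8.09% had their 4 Klf4 arrays above all controls. Over all 29981 features, named or not, 3.2% were called higher and 0.467% lower. A feature was called at a limma adjusted p under 0.05. Signals are given below first as the scanner software's processed intensity, unscaled, and then as normalised log2 signal, which is the log2 intensity minus the 75th percentile of the same array. Intensities of different probes are not comparable, so the genes are compared only by their changes. The arrays measure RNA of a pool of cells, so more cells that express a gene and more RNA of it per cell cannot be told apart.

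Emp1 is the gene by which the family was chosen. Its intensity was 6451, 4457, 2032 and 2797 on Klf4 replicates 2 to 5, against 4.48, 95.5, 6.95 and 4.54 on control replicates 2 to 5. The probe was well above background on all 4 Klf4 arrays but, among the controls, on replicate 3 alone. Its normalised log2 signal averaged 1.51 ± 0.71 in the Klf4 samples and -6.84 ± 1.84 in the controls (SD, n = 4 each). The difference of 8.34 on the log2 scale (SE 0.83) was the third largest rise among the genes with a symbol. It rests on dim control signals: between the replicates numbered 3, where both arrays measured the gene above background, the difference was 5.84, and between the lowest Klf4 array and the brightest control it was 4.64, or 24.9-fold. A background correction that adds an offset to every spot (normexp, offset 50) gave 5.37. Without control replicate 3 the difference was 9.23.

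The array carries 10 spots of the Emp1 probe, which show the precision within an array. On the Klf4 arrays the spots had an SD of 0.028 to 0.065 on the log2 scale, against 0.070 to 0.58 on the control arrays. The raised level on control replicate 3 was therefore not that of a single spot, as all 10 of its spots were well above background. On control replicate 2 the only spot above background was left out as an outlier by the scanner software's own flag. Emp3, which also has 10 spots, had a spot SD of 0.019 to 0.042 on the Klf4 arrays and 0.044 to 0.065 on the control arrays.

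**Figure D1:**
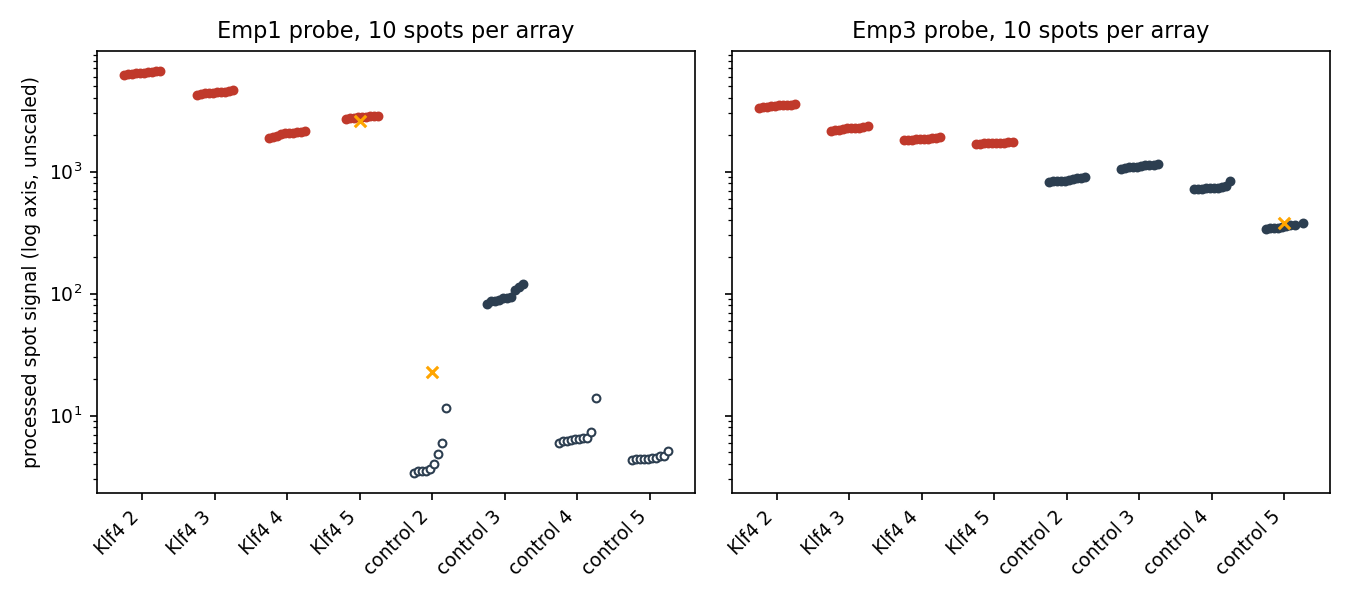
Processed signal of each of the 10 spots of the Emp1 probe (left) and the Emp3 probe (right) on the 4 Klf4 and 4 control arrays, on a log axis, unscaled. Filled points are spots well above background, open points are not, and crosses are spots left out as outliers; the Emp1 spots of control replicate 3 lie near 95.5 while those of the other controls lie near 4.48 to 6.95.

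Pmp22, the myelin protein gene that gives the family its name, rose with the smallest standard error of the 3 tested genes. Its intensity was 18545, 14064, 19362 and 8709 on Klf4 replicates 2 to 5, against 3050, 4920, 3076 and 1607 on control replicates 2 to 5. The groups did not overlap even unscaled, and both arrays numbered 5, which were read in a separate scan, had the lowest signal of their group. The normalised log2 signal averaged 3.52 ± 0.16 in the Klf4 samples and 1.25 ± 0.21 in the controls (SD, n = 4 each). The log2 change was 2.27 (SE 0.15, limma adjusted p = 0.00016). It was 2.25 within the first scan and 2.33 within the second, which holds 1 array of each group and gives no test, and with the scan as a block the limma adjusted p was 0.000305. The probe has a single spot per array.

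Emp2, the integrin regulator, rose by a similar amount with a wider spread. Its intensity was 1063, 690, 817 and 974 on Klf4 replicates 2 to 5, against 180, 209, 154 and 203 on control replicates 2 to 5. On the unscaled signals the controls lay close together, and every Klf4 array was over 3 times as bright as every control. The normalised log2 signal averaged -0.53 ± 0.59 in the Klf4 samples and -2.73 ± 0.59 in the controls (SD, n = 4 each). Most of this spread came from the replicates numbered 5, at 0.31 with Klf4 and -1.85 in the control, while the other Klf4 arrays lay between -1.02 and -0.56 and the other controls between -3.05 and -3.00. The log2 change was 2.21 (SE 0.36, limma adjusted p = 0.0119), with 2.22 in the first scan, 2.15 in the second and an adjusted p of 0.000209 with the scan as a block in limma. Without both arrays numbered 4, which the scanner software marked for evaluation, the call was lost at the same size of change (2.22, limma adjusted p = 0.064).

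Emp3 rose least. Its intensity was 3472, 2254, 1860 and 1714 on Klf4 replicates 2 to 5, against 854, 1101, 744 and 354 on control replicates 2 to 5. Klf4 replicate 4 was the lowest of its group after scaling, at 0.34, and control replicate 3 the highest of its own, at -0.64, so 0.98 on the log2 scale separated the groups. The normalised log2 signal averaged 0.83 ± 0.38 in the Klf4 samples and -0.81 ± 0.17 in the controls (SD, n = 4 each). The log2 change was 1.63 (SE 0.21, limma adjusted p = 0.00288). Within the first scan it was 1.45 and within the second 2.17, and with the scan as a block the limma adjusted p was 0.00542. Klf4 replicate 4 was also the lowest Klf4 array for Emp1, at 0.47, but the highest for Pmp22, at 3.72.

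**Figure D2:**
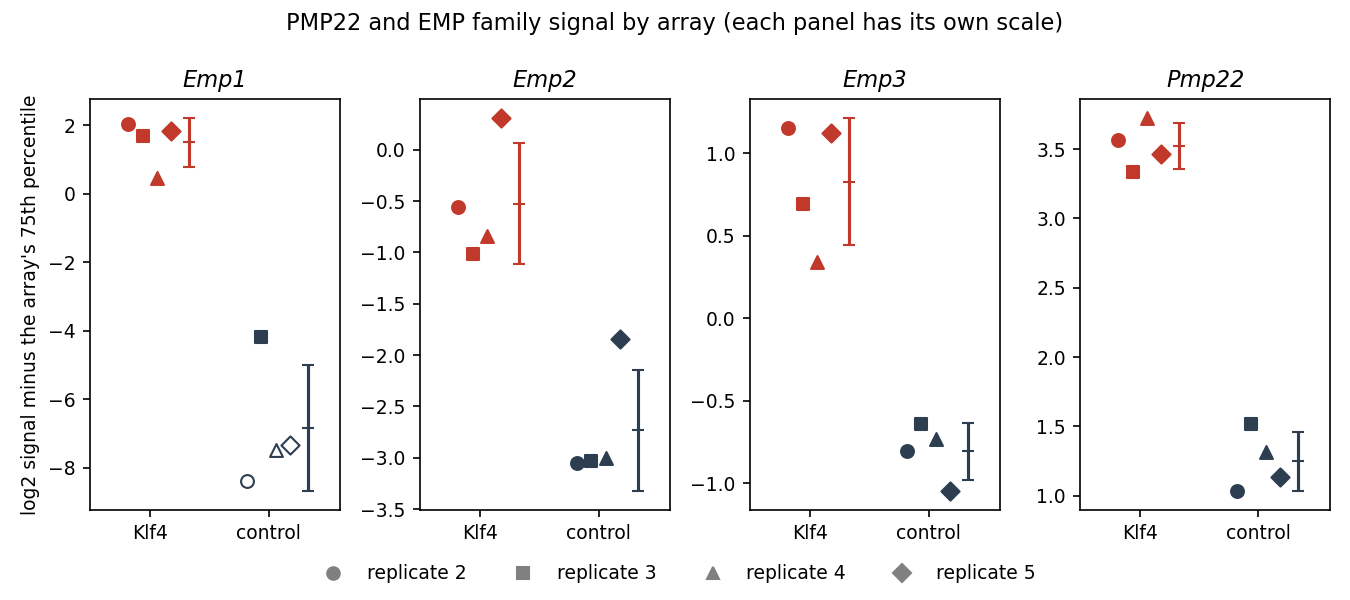
Normalised log2 signal (log2 intensity minus the array's 75th percentile) of the 4 family members on each Klf4 and control array, with a separate vertical scale per gene. Symbols mark the replicate number, open symbols are arrays on which the probe was not well above background, and bars show the mean and SD of 4 arrays; in every panel the lowest Klf4 array lies above the highest control.

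The rises of the 3 tested genes were compared in pairs. The change of Emp3 was 0.64 smaller on the log2 scale than that of Pmp22, with an exact permutation p of 0.0286 (two-sided), the smallest that 70 splits of the 8 arrays allow, and an adjusted p of 0.0857 over the 3 pairs. With no other pair at that smallest p, this pair could not have passed 0.05 after adjustment. Emp2 rose by 0.57 more than Emp3 (exact permutation p = 0.229, adjusted p = 0.343). Emp2 and Pmp22 differed by 0.07 with Emp2 lower (exact permutation p = 0.771, adjusted p = 0.771), a difference whose sign turned under some alternatives. Ordered by change among the 13590 genes with a symbol, Pmp22 stood at rank 210, Emp2 at rank 226 and Emp3 at rank 362, where Emp1 stood at rank 3. The authors' deposited log2 values, whose columns had nearly equal deciles, gave changes of 8.44 for Emp1, 2.25 for Emp2, 1.66 for Emp3 and 2.24 for Pmp22.

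**Figure D3:**
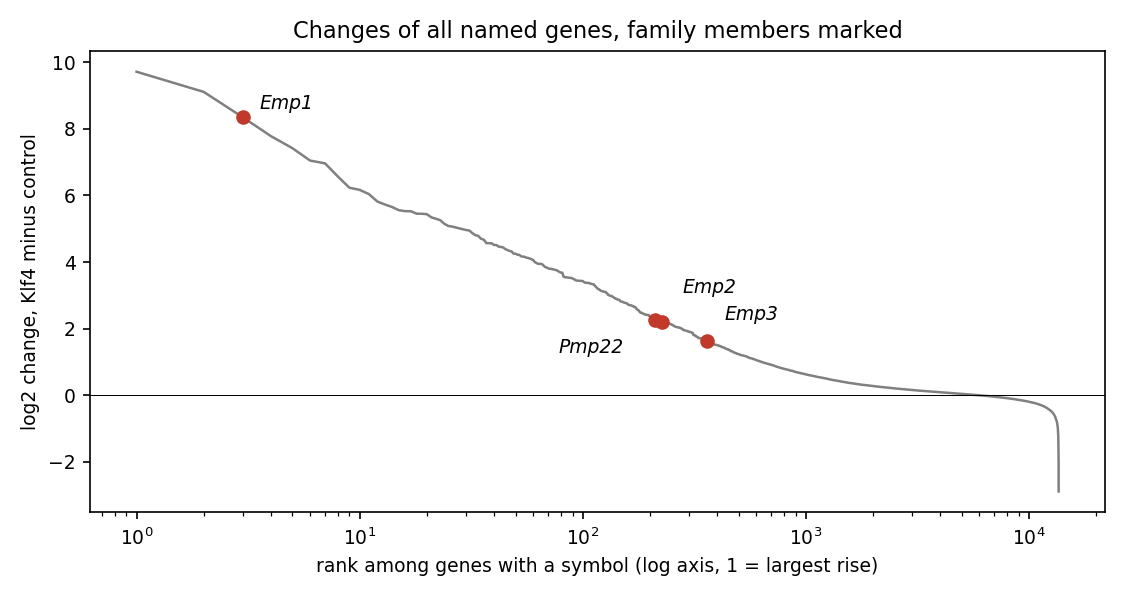
Log2 change (Klf4 minus control) of the 13590 genes with a symbol, ordered from the largest rise, with rank on a log axis. Emp1 stands at rank 3, Pmp22 at 210, Emp2 at 226 and Emp3 at 362.

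The sequences before the transcription starts are shown because the 4 genes were higher in the samples given a plasmid for a transcription factor of the KLF family, which as background binds CACCC and GC-rich elements. Given below are the 250 bases before each start as RefSeq places it (assembly GRCr8), with each CACCC and each GGGCGG, on either strand, in capitals. They lie at chr4:169943980-169944229 (plus strand) for Emp1, chr10:5866619-5866868 (plus strand) for Emp2, chr1:105528266-105528515 (minus strand) for Emp3 and chr10:48294682-48294931 (plus strand) for Pmp22.
Emp1: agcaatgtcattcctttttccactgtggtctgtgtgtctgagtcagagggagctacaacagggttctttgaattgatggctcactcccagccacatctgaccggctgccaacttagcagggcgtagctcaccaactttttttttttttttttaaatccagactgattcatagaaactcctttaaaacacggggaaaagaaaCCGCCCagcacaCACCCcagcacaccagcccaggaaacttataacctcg
Emp2: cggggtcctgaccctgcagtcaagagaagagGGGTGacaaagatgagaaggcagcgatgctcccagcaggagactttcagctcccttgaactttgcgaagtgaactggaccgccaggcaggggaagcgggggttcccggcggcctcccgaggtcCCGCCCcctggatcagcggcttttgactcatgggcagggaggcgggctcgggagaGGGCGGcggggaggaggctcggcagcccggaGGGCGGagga
Emp3: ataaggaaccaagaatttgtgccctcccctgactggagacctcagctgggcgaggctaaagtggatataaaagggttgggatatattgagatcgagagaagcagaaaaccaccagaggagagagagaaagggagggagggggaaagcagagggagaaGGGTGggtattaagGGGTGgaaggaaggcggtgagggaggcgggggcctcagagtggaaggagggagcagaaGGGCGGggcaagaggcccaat
Pmp22: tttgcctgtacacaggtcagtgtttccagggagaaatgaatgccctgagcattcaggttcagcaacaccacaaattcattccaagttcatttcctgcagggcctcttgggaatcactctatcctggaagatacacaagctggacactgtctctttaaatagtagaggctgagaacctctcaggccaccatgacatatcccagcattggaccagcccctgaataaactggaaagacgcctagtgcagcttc
The Emp1 window holds 1 CACCC, 37 to 33 bases before the start, and 1 GGGCGG on the opposite strand, 49 to 44 bases before it. The Emp2 window holds 1 CACCC and 3 GGGCGG, and the Emp3 window holds 2 CACCC and 1 GGGCGG. The Pmp22 window holds neither. Only 1 window per gene was searched, so any other transcription start of these genes is not covered. No match of one motif overlapped a match of the other. Of 33469 rat promoter windows of the same length, 49.2% hold a CACCC and 30.5% a GGGCGG, so both are common. Bases G and C made up 46.8% of the Emp1 window, 67.2% of Emp2, 56% of Emp3 and 48% of Pmp22. The median over all windows was 51.2%. Whether the matches follow base composition was not tested. These matches describe letters, not binding, and the arrays hold no measure of binding.

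For each member the 3 genes with the most similar pattern were found by the root mean square difference between normalised log2 profiles, each centred on its own mean over the 8 arrays, among 13490 other genes. Such profiles keep the difference between the groups, so genes with a change of similar size lie near each other. For Emp1 this is the difference by which the family was chosen, so its nearest genes are a description. For Emp1 they were Anxa8 (0.43) and Anxa1 (0.78), which encode calcium-dependent phospholipid-binding annexins, and Tnfsf9 (0.57), a TNF-family ligand gene. These 3 genes also rose from dim control signals, with log2 changes of 9.11 for Anxa8, 9.71 for Anxa1 and 7.78 for Tnfsf9. With normexp the changes were smaller, at 6.30, 7.51 and 5.44 in the same order. Nearest to Pmp22 were Prrt2 (0.16), a presynaptic protein gene, Lrrc8e (0.21), a subunit of volume-regulated anion channels, and Myadm (0.22), which encodes another membrane protein. Of these, Lrrc8e also rose from a dim control signal, -6.05 on average, and its change of 1.90 was 0.71 with normexp. Averaged over its kept probes, Prrt2 did not pass (limma adjusted p = 0.0526). Among the nearest to Emp2 were Fam167a (0.20) and Qdpr (0.23), an enzyme of tetrahydrobiopterin recycling. Nearest to Emp3 were Ppp1r1b (0.12), which encodes the phosphatase inhibitor DARPP-32, Bag3 (0.13), a co-chaperone gene, and Capg (0.14), an actin-capping protein gene. No member of the family was among the 3 nearest genes of another, which with 13490 genes compared says little about whether the members share a pattern.

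More distant relatives of the family did not move with it as a group. Of 35 listed genes of the wider superfamily, which holds the claudins of tight junctions and the gamma subunits of calcium channels, 27 passed the filter on dim probes, 1 was higher and 0 were lower. Counts here and in the lists below stand beside 4.55% called higher and 0.633% lower over all genes with a symbol. Perp, a desmosomal protein gene and p53 target whose product resembles the PMP22 family, was higher by 2.78 (SE 0.32, limma adjusted p = 0.00191), at -0.54 ± 0.69 in the Klf4 samples and -3.32 ± 0.23 in the controls (SD, n = 4 each). The other 26 lay between -1.63 (Cacng3, limma adjusted p = 0.345) and 0.50 (Cldn10, limma adjusted p = 0.196), and the list's median was -0.06, against -0.03 over all genes with a symbol. Cldn11, the claudin of myelin, was at 0.11, and Cldn15, a pore-forming claudin gene, at -0.06.

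Among genes for reported partners of these proteins, 1 of 13 measured was higher and 0 were lower, with a median of 0.02. Itgb4, the integrin chain of hemidesmosomes, which with the alpha-6 chain binds PMP22, was higher by 4.57 (SE 0.41, limma adjusted p = 0.000501), at 1.13 ± 0.89 in the Klf4 samples and -3.44 ± 0.29 in the controls (SD, n = 4 each). Its partner chain Itga6 was at 0.02 (limma adjusted p = 0.994). Itgb1, a target of EMP2, was at 0.33 (limma adjusted p = 0.348) and Ptk2, the focal adhesion kinase gene, at -0.35 (limma adjusted p = 0.259). The caveolin gene Cav1 was at -0.65 (limma adjusted p = 0.253) and the chaperone gene Canx, which handles newly made PMP22, at 0.10.

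Pmp22 is best known from myelinating glia, and the genes of these cells were set beside it. Of 16 measured myelin and glial genes, 1 was higher and 0 were lower, with a median of -0.02. Pllp, which encodes the myelin and epithelial protein plasmolipin, was higher by 2.12 (SE 0.31, limma adjusted p = 0.00689). Mbp, the myelin basic protein gene, was at 1.07 (limma adjusted p = 0.0699) and Cnp at 0.59 (limma adjusted p = 0.0779), and neither passed. The Schwann cell genes Prx (-0.11) and Egr2 (-0.01) and the glial factor Sox10 (0.39) did not pass either. The Klf4 arrays of Mbp and of Cnp nevertheless lay above all their controls, and both calls depended on the processing. Mbp was called higher under normexp, under array weights and when scan was a blocking factor. Cnp was called higher under quantile normalisation, under array weights and in the authors' values. Across the alternatives this list had 1 to 3 genes higher and 0 to 1 lower. The summed signal of the 17 listed genes, in multiples of each array's 75th percentile, was 16.5 to 24.3 in the Klf4 samples and 12.3 to 17.7 in the controls. Without Mbp, which differed most, the sum was 9.05 to 12.98 in the Klf4 samples and 9.35 to 12.3 in the controls.

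Tetraspanins and TM4SF proteins also cross the membrane 4 times but belong to other families. Of 24 measured genes, 4 were higher and 0 lower, with a median of 0.02, against 4.55% called higher over all genes with a symbol. Tspan17, which directs the protease ADAM10, was higher by 4.16 (SE 0.26, limma adjusted p = 0.00013), at 3.46 ± 0.48 in the Klf4 samples and -0.71 ± 0.32 in the controls (SD, n = 4 each). The integrin-associated genes Cd9 and Cd82 were higher by 1.99 and 1.67 (limma adjusted p = 0.000784 and 0.00316). Cd151 was higher by 0.63 (limma adjusted p = 0.0408), a call lost in 15 of 21 alternatives.

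**Figure D4:**
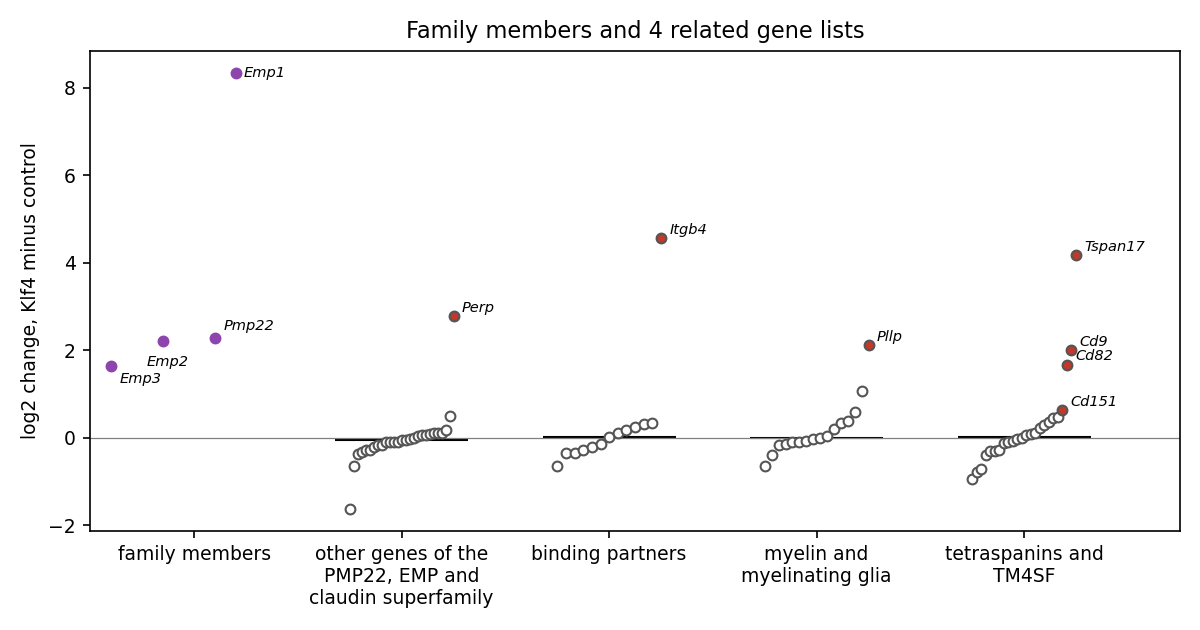
Log2 change (Klf4 minus control) of the 4 family members and of the measured genes of 4 related lists. In the lists red points passed the test, open points did not, and the line is the list's median; Perp, Itgb4, Pllp and 4 tetraspanin genes stand above lists whose medians lie between -0.06 and 0.02.

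Markers of the labelled tissue and of other cells were measured beside these genes. All 23 listed genes of retinal neurons and progenitors were well above background on all arrays of both groups. Of these 3 were higher with Klf4 and 2 lower, with a median of -0.13. The neuronal tubulin gene Tubb3 rose by 1.86 (limma adjusted p = 0.000624) and the ganglion cell factor gene Atoh7 by 2.76 (limma adjusted p = 0.000348), and both calls held in all 21 alternatives. Ptf1a, a factor of horizontal and amacrine cells, was higher by 0.68 (limma adjusted p = 0.0468), a call lost in 11 of them. The photoreceptor gene Rbp3 fell by 1.10 on the log2 scale (limma adjusted p = 0.0154), a call lost in 4, and the photoreceptor factor Crx by 0.84 (limma adjusted p = 0.0378), a call lost in 11. Crx was at 0.31 ± 0.30 in the Klf4 samples and 1.16 ± 0.18 in the controls, and the eye-field factor Pax6 at 2.32 ± 0.32 in the Klf4 samples and 2.32 ± 0.26 in the controls (SD, n = 4 each). The Klf4 probe itself read -3.0 ± 0.86 in the Klf4 samples and -3.27 ± 0.62 in the controls and did not separate the groups (log2 change 0.27, limma adjusted p = 0.916). No source used here says whether it lies within the plasmid's insert, and it cannot check the labels. All controls lay in columns 1 and 3 of the slide and all Klf4 arrays in columns 2 and 4, and these columns cannot be told apart from the groups.

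Surface epithelium, where EMP genes are known to be active, had a summed signal that moved with the family and did not overlap between the groups. The sum over 8 of its 12 genes was 14.9 to 23.9 in the Klf4 samples and 2.78 to 4.93 in the controls, in multiples of each array's 75th percentile. The keratin gene Krt19 alone had 13.7 to 22.2 in the Klf4 samples and 2.01 to 3.45 in the controls, and without it the sum over 7 genes was 0.994 to 1.69 in the Klf4 samples and 0.778 to 1.5997 in the controls, which overlap. Of 7 measured genes 2 were higher and 0 lower, with a median of 0.06, and Krt19 rose by 2.69. The keratin gene Krt8 was well above background on 3 Klf4 arrays and 0 control arrays, so it passed the filter through the Klf4 group alone. Its p and its place in the count are therefore given as a description. With each control set at the lowest signal of any probe above background on its array, Krt8 was 2.88-fold higher. The Klf4 mean in this value includes an array on which Krt8 was not above background. That lowest signal comes from other probes, so the value is not a lower bound for Krt8. The fit on the measured signals gave a log2 change of 3.34 (limma adjusted p = 0.00235), and normexp one of 0.77, at which the call was lost (limma adjusted p = 0.221). The defining gene Krt5 was at -0.20 (limma adjusted p = 0.85), and Epcam was well above background on 1 Klf4 array and 0 control arrays. For pigment epithelium, where Emp2 is known, 0 of 3 measured genes passed. The sum over 8 genes was 32.6 to 91.9 in the Klf4 samples and 35.2 to 63.4 in the controls. Most of it was Mitf, at 26.6 to 89.4 in the Klf4 samples and 30.5 to 59.3 in the controls. The other 7 genes summed to 2.45 to 6.04 in the Klf4 samples and 3.57 to 4.67 in the controls. The defining gene Rpe65 was well above background on 1 Klf4 array and 0 control arrays. Pericyte and fibroblast genes, 2 of 7 of them higher and 0 lower, with a median of -0.17, summed to 10.04 to 12.7 in the Klf4 samples and 6.29 to 9.0 in the controls. The collagen gene Col1a1 alone had 6.01 to 7.88 in the Klf4 samples and 2.34 to 3.04 in the controls, and without it the sums overlapped, at 3.36 to 5.998 in the Klf4 samples and 3.88 to 6.20 in the controls. The defining gene Pdgfrb was at -0.86 (limma adjusted p = 0.523). Endothelial genes, 2 of 6 of them higher and 0 lower, summed to 93.8 to 161 in the Klf4 samples and 99.02 to 119 in the controls. Kdr alone had 85.9 to 155 in the Klf4 samples and 93.5 to 114 in the controls. Without it the sum over 9 genes was 5.98 to 7.89 in the Klf4 samples and 4.98 to 6.13 in the controls, which overlap. Tek was higher by 2.38 (limma adjusted p = 0.0016), a call that held in all 21 alternatives. One of the called genes, Esam, was well above background on 3 Klf4 arrays and 0 control arrays, so it also passed the filter through the Klf4 group alone. Its call, likewise a description, was lost with normexp and in the first scan alone, at a limma adjusted p of up to 0.0878. Microglial genes, 1 of 8 of them higher and 0 lower, summed to 6.32 to 7.04 in the Klf4 samples and 5.37 to 8.01 in the controls over 9 genes, without Cd68, which had no usable spot on 1 Klf4 array and 2 control arrays. Of 6 measured astrocyte genes 1 was higher and 0 lower, S100b by 3.80 (limma adjusted p = 0.0319), a call lost in 11 of 21 alternatives. S100b was well above background on 4 Klf4 arrays and 2 control arrays, so it too passed the filter through the Klf4 group alone. Its p is therefore given as a description, and normexp gave a smaller change of 1.85. The defining gene Gfap was at -0.40 (limma adjusted p = 0.667). The part of such cells in the rise of the family was not tested.

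**Figure D5:**
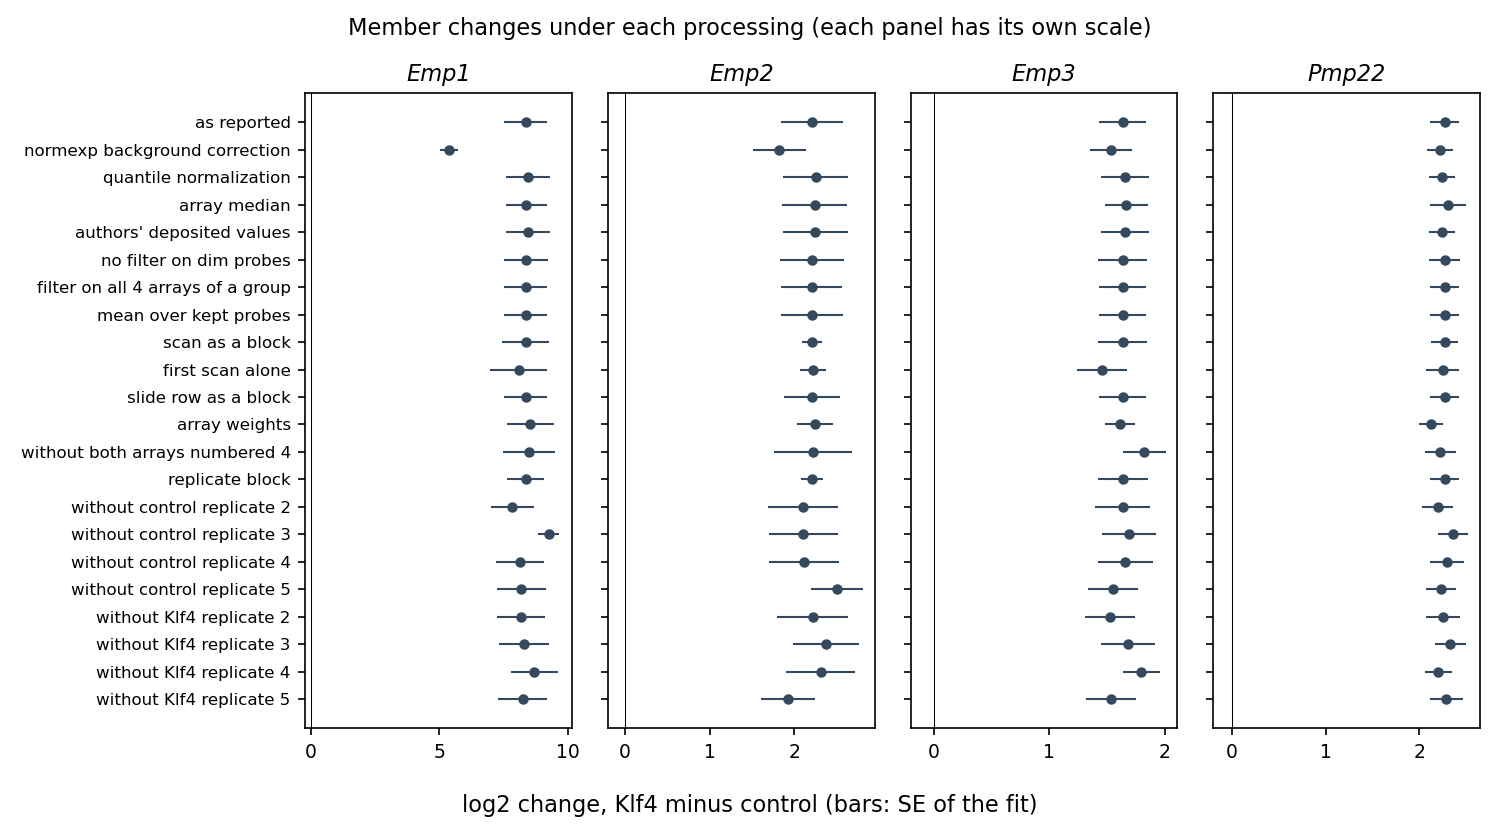
Log2 change (Klf4 minus control) of each family member as reported and under each of 21 other ways to process the arrays or choose the samples, with the SE of each fit as a bar and a separate horizontal scale per gene. All changes lie above 0; that of Emp1 is lowest with normexp, at 5.37.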

How the data were processed

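Cy3-labelled RNA of the sorted cells was read on 8 single-colour Agilent arrays of 1 slide with Feature Extraction 10.7.3.1, per the file headers. That software removed background and spatial trends from the deposited intensity values, per the file headers, and they are not scaled between arrays. The authors also deposited log2 values whose columns had equal medians (7.54) and deciles within 0.00724 of each other; no source used here gives the method, and they served only as an alternative.

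Control spots and spots with the software's outlier flags were left out, the log2 intensities of a probe's spots were averaged, and values were expressed relative to the 75th percentile of their array. A probe counted as well above background on an array where over 50% of its spots were, and was kept where this held on at least 3 of 4 arrays of a group. All 4 family members were kept, Emp1 through the Klf4 group alone. Of 45598 gene probes 21109 were named by matching unversioned accessions to the RefSeq gene table of assembly GRCr8; array coordinates are not printed because the headers name another build. A gene was represented by its brightest kept probe, giving 29981 features, 13590 with a symbol. Groups were compared with limma 3.58.1 (lmFit, eBayes) in R 4.3.3, two-sided, without covariates, with Benjamini-Hochberg adjustment over all features. On simulated data for this comparison with 29981 features, 89% of 100 features changed by 3 on the log2 scale and 27% of 100 changed by 1 were recovered. The 75th percentile signal ranged from 732 to 1718 and 72.1% to 86.5% of spots were well above background. The number of arrays limits the precision. No spot was saturated.

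The files' scanner tables hold median but not mean spot signals, so normexp used the median. Text names all probes of the members, the 3 genes nearest in profile to each, Klf4, genes of the related lists that passed, and cell type defining genes. Other genes given with values were chosen for their known role, after their values were seen. A few genes that these rules name are not reported here. The members and lists were chosen with earlier results of these data known. Figures were drawn with matplotlib 3.10.9.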

Additional observations from a re-analysis of the deposited data

Results flagged for a closer look

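Emp2 was highest among the controls on control replicate 5, whose normalised log2 signal of -1.85 lay apart from the other 3 controls (-3.05 to -3.00) by 0.962 of the group's range, which is above Dixon's critical value for 4 arrays. Chance flags about 1 in 20 groups, and 8 groups were examined. Its unscaled intensity of 203 lay within the range of the other controls, 154 to 209, while the array's 75th percentile, 732, was the lowest of the 8 arrays. Klf4 replicate 5, of the same scan, was likewise the highest Klf4 array for Emp2, at 0.31, with a 75th percentile of 787. Without control replicate 5 the change of Emp2 was 2.50.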

How the results depend on the processing

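The changes of Emp2, Emp3 and Pmp22 stayed above 0 under all 21 alternatives, at 1.82 to 2.50, 1.45 to 1.82 and 2.13 to 2.36. Emp3 and Pmp22 kept their calls in all 21 (limma adjusted p at most 0.0281 and 0.00372), and Emp2 in 20, losing it without both arrays numbered 4 (2.22, limma adjusted p = 0.064); the fit then had fewer arrays. Emp1 was at 5.37 with normexp, whose offset raises dim signals. Leaving out 1 array gave 7.83 to 9.23 for Emp1, 1.93 to 2.50 for Emp2, 1.53 to 1.79 for Emp3 and 2.20 to 2.36 for Pmp22. The difference between Emp2 and Pmp22 turned to 0.011 with quantile normalisation and 0.0090 with the authors' values, and lay between -0.36 and 0.27 with 1 array left out; that between Emp2 and Emp3 lay between 0.39 and 0.95, and that between Emp3 and Pmp22 between -0.76 and -0.41. The cause was not tested. Features called lower, 140 as reported, numbered 93 with the array median, 70 with no filter, 255 with the scan as a block, 47 in the first scan alone and 1269 with array weights, and 32 (without control replicate 2) to 406 (without Klf4 replicate 4) with 1 array left out. Features called higher, 959 as reported, numbered 632 in the first scan alone, 1846 with array weights and 604 (without Klf4 replicate 2) to 1222 (without Klf4 replicate 4) with 1 array left out. Array numbers were shared between groups, but the pairing was not clear: same-numbered arrays had correlations of their deviations of 0.36, 0.24, 0.061 and 0.55, and 3 of 4 Klf4 arrays correlated best with their own number. With the replicate number as a block the changes stayed at 8.34, 2.21, 1.63 and 2.27 for Emp1, Emp2, Emp3 and Pmp22, with limma adjusted p of 0.00274 for Emp2, 0.0228 for Emp3 and 0.00372 for Pmp22, and 841 features were higher and 101 lower. The change of the Klf4 probe, 0.27 as reported, lay between -0.15 (without Klf4 replicate 3) and 0.54 (without control replicate 3) with 1 array left out. The dim Emp1 signals on 3 controls limit how exactly its fold can be given.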
